A study of Homo sapiens with 23 samples.

Results

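Of the 21463 gene rows in the authors' deposited table, 10 were described here. They encode replacement histones, here histone variants with polyadenylated mRNA, and were chosen by gene name. The linker histones of the set are H1F0 and H1FX, and the H2A variants are H2AFX, H2AFJ, H2AFZ and H2AFV. The macroH2A genes are H2AFY and H2AFY2, and the H3.3 genes are H3F3A and H3F3B.

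Replication-dependent histones are made in S phase from clustered genes whose mRNA ends in a stem-loop. Replacement histones can be placed into chromatin outside DNA replication, some of them by their own chaperones. H3.3 is deposited by the HIRA complex and by DAXX with ATRX, H2A.Z is exchanged by the SRCAP and TIP60 complexes, and H2AX is phosphorylated at DNA breaks. A splice form of the macroH2A gene H2AFY binds ADP-ribose through its macrodomain, and PARG is the enzyme that degrades poly(ADP-ribose).

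The cells were PC-3, a prostate cancer line from a bone metastasis, carrying a lentiviral PARG cDNA with a cleavable mClover3 tag behind a TetOne doxycycline-inducible promoter. Single clones H6 and I4 were each grown for 72 h with 500 ng/ml doxycycline or without it, in 2 experiments, B at passage 7 and N at passage 5. The 23 libraries formed 8 groups: H6 with doxycycline in B and H6 without it in B, I4 with and I4 without it in B, and the same 4 groups in N. Each group had 3 wells, except the 2 libraries of untreated H6 in experiment B. All groups carried the construct, so an effect of doxycycline itself and an effect of PARG cannot be told apart, and each clone is 1 clone.

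The authors' deposited table gives, for each of the 4 comparisons of doxycycline against none, the higher of the 2 group means in RPKM (reads per kilobase of exon, scaled to library size), a signed fold and a q-value. The lower mean was worked out as the higher mean divided by the fold. A gene was called at a q under 0.05. The values of single wells were not analysed here, so no spread between wells stands beside a mean, and the q-values carry the only measure of replicate error. In whole populations of cells, fewer cells of a kind and less RNA per cell cannot be told apart.

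PARG, the induced gene, rose 1.99-fold in H6 B, 1.40-fold in I4 B (q = 1.37e-10), 2.15-fold in H6 N and 1.355-fold in I4 N (q = 9.06e-09) in the authors' deposited table, with q listed as 0 in both H6 comparisons. The sign of the folds was itself read from PARG, so its direction is no check of induction. Steps in the low values gave read numbers of 19.8 to 26.5 M reads in B (8 steps) and 33.6 to 43.2 M reads in N (9 steps), fewer steps than the 23 libraries. Keratins KRT8 and KRT18 and vimentin (VIM) were present at 25.1 to 55.9, 101 to 127 and 287 to 416 RPKM, as the higher group mean of each comparison in the authors' deposited table. Of markers of other cells, PTPRC, CD3E, HBB, DCN, PDGFRB, CDH5 and VWF stayed at or below 0.0515 RPKM by the same measure. COL1A2 and LUM lay between 0.189 and 0.634 RPKM, PECAM1 between 0.719 and 1.34 RPKM, COL1A1 between 6.23 and 17.7 RPKM, and CD68 between 16.1 and 27.4 RPKM. The proliferation markers MKI67, TOP2A, PCNA and CCNB1 were called in 0 of the 4 comparisons. With doxycycline, KRT8 and KRT18 rose in all 4 and VIM in 2 comparisons, PECAM1 fell in 3, COL1A1 fell in 1 and LUM rose in 1, and their part in the values of the histone genes was not tested.

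With doxycycline, 2 of the 10 replacement histone mRNAs fell, both in 1 comparison, H6 N: the macroH2A gene H2AFY2 by 1.199-fold and the linker histone gene H1F0 by 1.19-fold, in the authors' deposited table. The other 8 members were not called in H6 N, and 0 of 10 were called in H6 B, in I4 B or in I4 N. Across all genes tested, the same rule called 7.56% in H6 B, 14% in I4 B, 13.6% in H6 N and 15.7% in I4 N. Among genes of at least 1 RPKM, as every member was, it called 10.5%, 19.4%, 20.4% and 22.9% of genes in those comparisons. The members' 2 of 10 in H6 N is thus close to that background. No member was called with 1 sign in all 4 comparisons, in both N comparisons or in both B comparisons, where 4.99%, 11.9% and 6.67% of genes of at least 1 RPKM were.

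The tool behind the q-values was not given in the sources used here. If they are Benjamini-Hochberg values, an upper bound of each unadjusted p can be worked out from them: this bound was under 0.05 for 0 members in H6 B, 2 in I4 B (H2AFX and H2AFJ), 3 in H6 N (H1F0, H2AFY2 and H2AFZ) and 2 in I4 N (H2AFY2 and H2AFJ). Of all genes of at least 1 RPKM, 22.3%, 30.6%, 33.4% and 35.2% passed it in those comparisons.

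**Figure D1:**
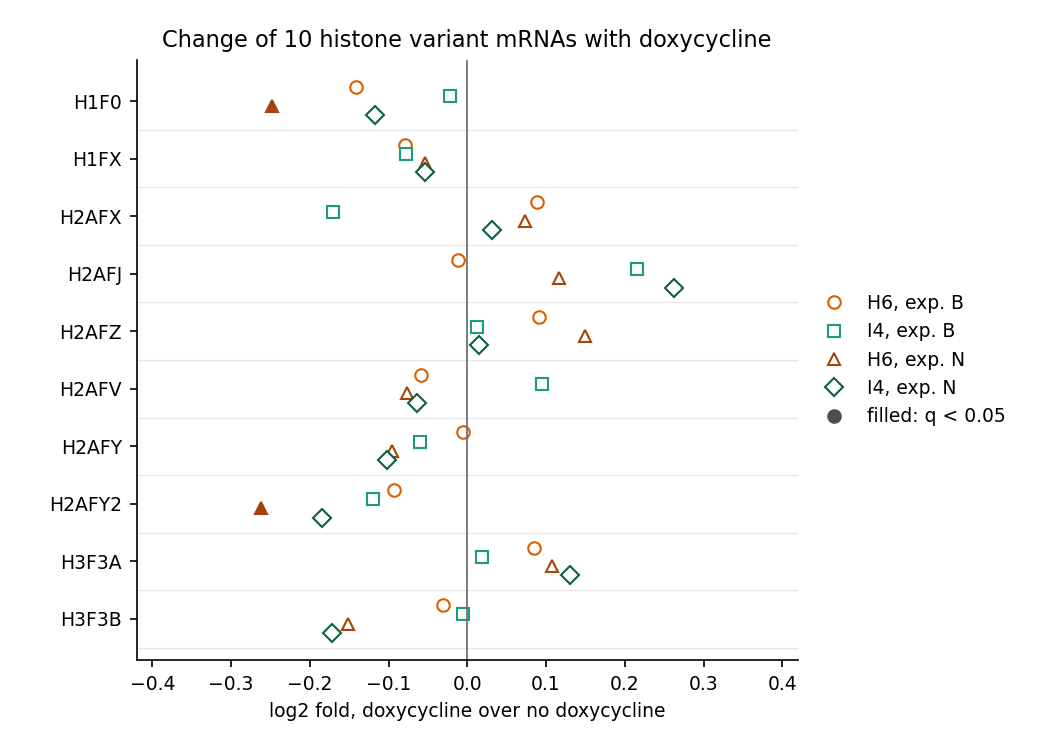
Log2 fold with doxycycline over no doxycycline (horizontal axis) for the 10 histone variant genes (rows) in 4 comparisons, from the authors' deposited table, with filled symbols for q under 0.05. Points lie between -0.26 and 0.26, and the 2 filled points are H1F0 and H2AFY2 in H6 N.

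Every fold was small. The largest of any member was 1.10 in H6 B (H1F0), 1.16 in I4 B (H2AFJ), 1.199 in H6 N (H2AFY2) and 1.199 in I4 N (H2AFJ), in the authors' deposited table. The members' median absolute log2 fold was 0.08 in H6 B, 0.07 in I4 B, 0.11 in H6 N and 0.11 in I4 N, beside 0.11, 0.11, 0.12 and 0.13 for all genes of at least 1 RPKM in those comparisons. In sign, 5 members (H1F0, H1FX, H2AFY, H2AFY2 and H3F3B) were listed lower with doxycycline in all 4 comparisons, 2 (H2AFZ and H3F3A) higher in all 4, and H2AFX, H2AFJ and H2AFV changed sign between comparisons. Of the 10307 genes of at least 1 RPKM with a fold in all 4, 24.7% were listed lower and 23.9% higher in every comparison, and all but 2 of the members' signs belong to folds that were not called.

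How small a fold could be called was read from other genes of similar level, those of 30 to 350 RPKM, which took in every member but H2AFJ. In that range the smallest fold called in the authors' deposited table was 1.17 in H6 B (203 of 1735 genes called), 1.14 in I4 B (323 of 1681), 1.14 in H6 N (458 of 1834) and 1.14 in I4 N (514 of 1810). Of genes with an absolute log2 fold between 0.30 and 0.40, 95.5% were called in H6 B, 100% in I4 B, 99.1% in H6 N and 98.7% in I4 N. Below an absolute log2 fold of 0.15, 0 of 1301, 1191, 1157 and 1003 genes were called in the 4 comparisons. The q-values rest in part on these same folds. The counts therefore show which listed folds were called, not which true changes could be detected. Outside H6 N, the members in this range nearest to the called folds in fold size were H2AFX in I4 B (-0.17), and H2AFY2 (-0.18) and H3F3B (-0.17) in I4 N, on the log2 scale. The range pools levels, and q did not follow fold size alone within it. In I4 N, H3F3B had a q of 0.339 at a fold of -1.13, and H3F3A a q of 0.237 at 1.09. A q above the threshold does not show that a member was unaffected.

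**Figure D2:**
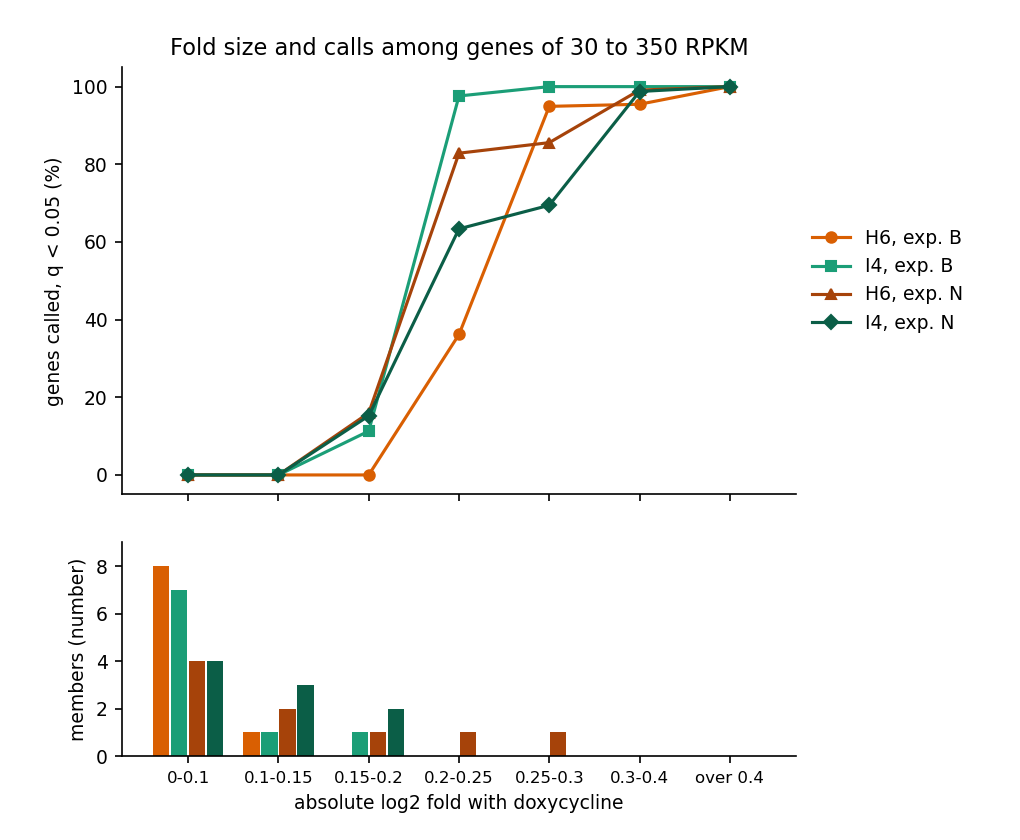
Upper panel, percent of genes of 30 to 350 RPKM called at q under 0.05 (vertical axis) by absolute log2 fold with doxycycline (horizontal axis), for 4 comparisons. Lower panel, number of histone variant genes of that level in each class of fold: H6 N is the comparison with members in classes from 0.2 upward, H1F0 and H2AFY2.

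Promoter sequences of the abundant H2AFZ and H3F3B, whose mRNAs stood among the top 184 genes in each comparison, are printed beside that of H2AFY2, the member with the largest mean fold. They are RefSeq windows of 300 bases, from 250 before to 50 after the annotated start, on GRCh38.p14. Capitals mark the CCAAT box (CCAAT or its reverse ATTGG) and the TATA box (TATAAA or TTTATA). The H2AFY2 window is chr10:70052596-70052895 on the plus strand, that of H2AFZ chr4:99950226-99950525 on the minus strand and that of H3F3B chr17:75779730-75780029 on the minus strand.
H2AFY2: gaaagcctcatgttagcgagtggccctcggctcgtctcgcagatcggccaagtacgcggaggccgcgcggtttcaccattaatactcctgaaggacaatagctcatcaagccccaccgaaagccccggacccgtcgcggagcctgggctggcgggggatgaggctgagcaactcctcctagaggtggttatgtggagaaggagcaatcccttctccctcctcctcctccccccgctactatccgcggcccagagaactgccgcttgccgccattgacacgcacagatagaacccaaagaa
H2AFZ: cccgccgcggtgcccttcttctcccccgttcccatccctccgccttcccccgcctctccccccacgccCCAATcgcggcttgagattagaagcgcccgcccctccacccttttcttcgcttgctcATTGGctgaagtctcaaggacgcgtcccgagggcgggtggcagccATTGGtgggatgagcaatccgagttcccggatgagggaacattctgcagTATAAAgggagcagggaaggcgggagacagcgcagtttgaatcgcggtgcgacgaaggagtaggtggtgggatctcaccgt
H3F3B: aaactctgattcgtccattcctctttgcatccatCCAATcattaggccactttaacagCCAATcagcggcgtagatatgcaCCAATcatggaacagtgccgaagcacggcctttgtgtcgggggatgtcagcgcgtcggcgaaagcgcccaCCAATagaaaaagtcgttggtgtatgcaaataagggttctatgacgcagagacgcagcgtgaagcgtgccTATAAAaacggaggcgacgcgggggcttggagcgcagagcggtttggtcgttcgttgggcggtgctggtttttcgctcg

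The H2AFZ window holds 3 CCAAT letters in either direction and 1 TATAAA, the H3F3B window 4 and 1, and the H2AFY2 window 0 of both. RefSeq promoter entries were found for 9 of the 10 members, in 13 windows, with H1F0 having none. At least 1 window held CCAAT in 7 of these 9 members, TATAAA in 4, and the GC box GGGCGG (or CCGCCC) in 5, on either strand. By window, 9, 4 and 8 of the 13 held them. Of the 9 members, 7 had 1 window, and H2AFY and H3F3A had more. Some H3F3A windows overlap, and each of them held GGGCGG, so the 13 are not separate promoters. Over all 35116 promoter windows of the same length the shares were 34.6%, 11.5% and 44.95%. These are shares by window, and the counts by member allow several windows a gene. The H1FX, H2AFX, H2AFZ and H3F3B windows were those with TATAAA. These matches are of letters in 300 bases and describe no binding.

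The linker histone H1F0, known for accumulating in differentiated and resting cells, is a gene of 1 exon on chromosome 22 (37805093 to 37807436, plus strand, GRCh38 in the GENCODE annotation). Doxycycline-treated cells held 121 RPKM of H1F0 in H6 B, 250 in I4 B, 136 in H6 N and 286 in I4 N, against 133, 254, 162 and 311 RPKM in the untreated cells of the same clones and experiments, worked out from the authors' deposited table. It was called in H6 N (fold -1.19, q = 0.00350), and not in H6 B (fold -1.10, q = 0.399), I4 B (fold -1.02, q = 1.00) or I4 N (fold -1.08, q = 0.637). The difference between comparisons was not tested, since it needs values per well.

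H1F0 differed more between the clones than with doxycycline. Its level in H6 over that in I4 was 0.484 with doxycycline and 0.526 without it in B, and 0.475 with doxycycline and 0.520 without it in N, worked out from the authors' deposited table. On the log2 scale these ratios were -1.05, -0.93, -1.07 and -0.94, and 0.867% to 1.31% of the 10039 genes of at least 1 RPKM in all 8 groups lay as far from 0. Without doxycycline, the next largest clone ratio of a member was that of H2AFY, at -0.28 in B and -0.30 in N for H6 over I4. No test of the clone difference could be made, because each clone is 1 clone, no well values were used, and the levels come from separate comparisons that the authors may have scaled separately.

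**Figure D3:**
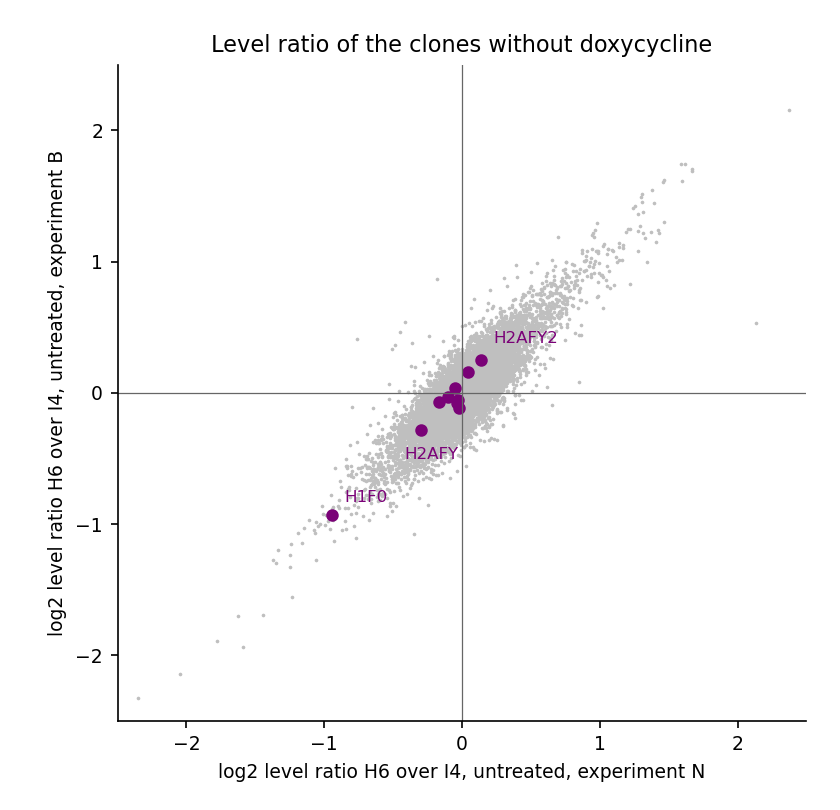
Log2 ratio of levels without doxycycline, H6 over I4, in experiment N (horizontal axis) and experiment B (vertical axis), for the histone variants (purple) and all genes of at least 1 RPKM in the 8 groups (grey, 2 genes outside the axes). H1F0 lies at -0.94 and -0.93 and the other 9 members between -0.30 and 0.25.

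H1FX, the other linker histone of the set, is an intronless gene on chromosome 3 (129314771 to 129316277, minus strand) with an antisense RNA gene, H1FX-AS1, on the opposite strand. Treated cells held 34.4 RPKM in H6 B, 36.2 in I4 B, 69.4 in H6 N and 77.8 in I4 N, against 36.4, 38.2, 72.0 and 80.8 RPKM in untreated cells, worked out from the authors' deposited table. The folds were listed between -1.04 and -1.06 and the smallest q was 0.782. The libraries of N did not mark strand, so reads of the antisense gene cannot be told apart there.

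H2AFX encodes the histone whose phosphorylated form marks DNA breaks, from 1 exon on chromosome 11 (119093854 to 119095467, minus strand). With doxycycline it stood at 56.8 RPKM in H6 B, 46.4 in I4 B, 102 in H6 N and 102 in I4 N, against 53.4, 52.2, 96.8 and 100 RPKM without it, worked out from the authors' deposited table. The fold was negative in I4 B (-1.13, q = 0.125) and positive in H6 B (1.06, q = 0.849), H6 N (1.05, q = 0.696) and I4 N (1.02, q = 1.00). None of these was called, and an mRNA level says nothing of the phosphorylated protein. The libraries were poly(A)-selected, which favours mRNA with a tail, so any H2AFX mRNA without a tail would be under-counted.

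H2AFJ, an H2A variant reported to accumulate in senescent human cells, was the lowest member. Its gene lies on chromosome 12 (14774383 to 14778002, plus strand). Treated cells held 3.02 RPKM in H6 B, 3.62 in I4 B, 4.11 in H6 N and 4.89 in I4 N, against 3.05, 3.11, 3.80 and 4.08 RPKM in untreated cells, worked out from the authors' deposited table. Its folds were the widest of the uncalled ones, 1.16 in I4 B (q = 0.189) and 1.199 in I4 N (q = 0.118), beside -1.01 in H6 B (q = 1.00) and 1.08 in H6 N (q = 0.733). Both larger folds were in clone I4, and neither was called.

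H2A.Z comes from H2AFZ, on chromosome 4 (99948086 to 99950388, minus strand), and H2AFV, on chromosome 7 (44826791 to 44848083, minus strand). H2AFZ stood at 252 RPKM in treated H6 B, 215 in I4 B, 322 in H6 N and 285 in I4 N, against 237, 213, 290 and 282 RPKM in untreated cells, worked out from the authors' deposited table. It was listed higher in all 4 comparisons by folds of 1.01 to 1.11, with the smallest q, 0.155, in H6 N. H2AFV stood at 42.6, 49.3, 46.6 and 47.9 RPKM in treated cells of H6 B, I4 B, H6 N and I4 N, against 44.4, 46.1, 49.1 and 50.03 RPKM in untreated cells, with no q below 0.574 in the authors' deposited table. H2AFV thus made up 12.6% to 18.7% of the H2A.Z RPKM with doxycycline and 14.5% to 17.8% without it. In GENCODE the merged exons of H2AFZ measure 2303 bases and its longest coding transcript 979, against 4749 and 3804 for H2AFV. These shares therefore cannot be read as shares of mRNA molecules.

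MacroH2A, the H2A variant with a large globular macrodomain, comes from H2AFY on chromosome 5 (135333900 to 135399914, minus strand) and H2AFY2 on chromosome 10 (70052796 to 70112280, plus strand). The splice forms of H2AFY, of which 1 binds ADP-ribose, are summed in these gene values and cannot be told apart. H2AFY2 stood at 49.7 RPKM in treated H6 B, 40.9 in I4 B, 42.05 in H6 N and 40.3 in I4 N, against 53.0, 44.5, 50.4 and 45.8 RPKM in untreated cells, worked out from the authors' deposited table. It was lower with doxycycline in every comparison, with folds of -1.07 (q = 0.801), -1.09 (q = 0.4003), -1.199 (q = 0.00259) and -1.14 (q = 0.0581), so that it was called in H6 N and just missed the threshold in I4 N. Its mean log2 fold, -0.17, was the farthest from 0 of the 10. AIFM2 overlaps H2AFY2 on the opposite strand, and the N libraries, in which the call was made, did not mark strand.

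H2AFY stood at 54.97 RPKM in treated H6 B, 64.3 in I4 B, 51.8 in H6 N and 63.4 in I4 N, against 55.2, 67.0, 55.4 and 68.1 RPKM in untreated cells, worked out from the authors' deposited table. It was listed lower in all 4 comparisons, with folds of -1.004 to -1.07, and the smallest q was 0.448. Per length, H2AFY2 made up 47.5% of the macroH2A RPKM in treated H6 B, 38.9% in I4 B, 44.8% in H6 N and 38.8% in I4 N. In untreated cells it made up 49.0%, 39.9%, 47.7% and 40.2%. In GENCODE the merged exons of H2AFY measure 17730 bases and its longest coding transcript 2789, against 1980 for both in H2AFY2. The shares depend on the exon length the authors divided by, so they cannot be read as shares of mRNA molecules. The share differed more between the clones than with doxycycline, and neither difference was tested.

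H3.3 is encoded by H3F3A, on chromosome 1 (226061851 to 226072001, plus strand), and H3F3B, on chromosome 17 (75776434 to 75785893, minus strand), which specify the same protein. H3F3B stood at 232 RPKM in treated H6 B, 256 in I4 B, 271 in H6 N and 272 in I4 N, against 237, 257, 301 and 307 RPKM in untreated cells, worked out from the authors' deposited table. H3F3A stood at 91.8, 92.8, 113 and 118 RPKM in treated cells of those clones and experiments, against 86.5, 91.5, 105 and 108 RPKM in untreated cells. H3F3B was listed lower in all 4 comparisons (folds of -1.02, -1.003, -1.11 and -1.13, smallest q 0.339) and H3F3A higher in all 4 (folds of 1.06, 1.01, 1.08 and 1.09, smallest q 0.237), and neither was called in the authors' deposited table.

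With these opposite signs, H3F3A made up, per length, 28.3% of the H3.3 RPKM in treated H6 B, 26.6% in I4 B, 29.4% in H6 N and 30.2% in I4 N. In untreated cells it made up 26.7%, 26.3%, 25.8% and 26.0%. These shares too depend on the exon length used and are not shares of mRNA molecules. The log2 ratio of H3F3A to H3F3B differed with doxycycline by 0.12 in H6 B, 0.02 in I4 B, 0.26 in H6 N and 0.30 in I4 N, worked out from the authors' deposited table. This ratio was chosen after its values were seen and was not tested. The annotation names pseudogenes of H3F3A (6), H3F3B (2), H2AFZ (6) and H2AFV (1), none with a row of its own, and how reads shared with them were counted was not given in the sources used here. UNK overlaps H3F3B on the opposite strand, C5orf66 overlaps H2AFY, and H2AFZ and H3F3A each overlap an antisense RNA gene, so that in N their values may hold reads of these partners.

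**Figure D4:**
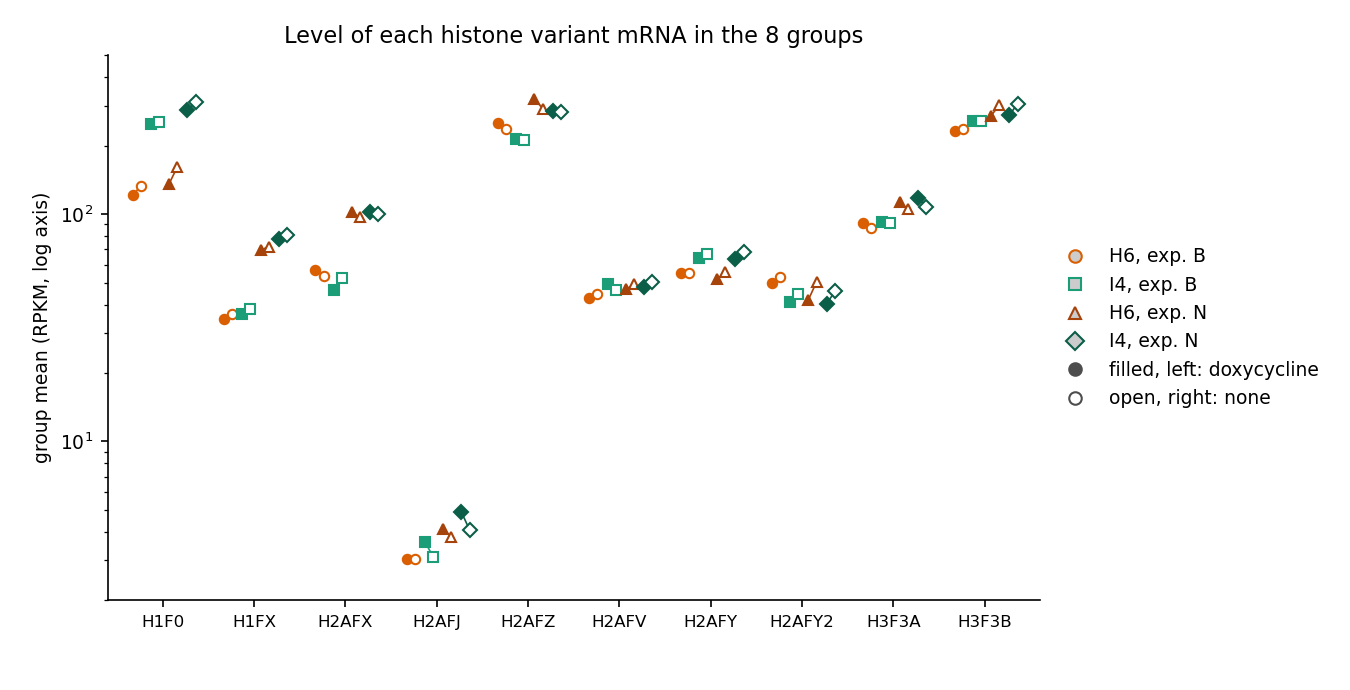
Group mean in RPKM (vertical log axis) of each histone variant mRNA in the 8 groups, from the authors' deposited table, with filled symbols for doxycycline at the left of each joined pair and open symbols for none. H3F3B, H2AFZ and H1F0 take the top 3 places in every group, H1F0 separates by clone, and H1FX and H2AFX separate by experiment.

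In the order of levels per length, H3F3B, H2AFZ and H1F0 took the top 3 places in every group, H3F3A the next and H2AFJ the last. Within the top 3 the order varied: H2AFZ led in treated H6 of both experiments, H1F0 in treated and untreated I4 of N, and H3F3B in the other 4 groups. H2AFX, H2AFY, H2AFY2, H2AFV and H1FX, between 34.4 and 102 RPKM, changed places between groups, and no spread between wells is at hand to separate neighbours. These levels rest on the exon length the authors divided by. It was not stated in the sources used here, but steps in the low values scaled with merged exon length in GENCODE. The order is therefore read as one of levels per merged length, not of mRNA molecules. Where merged exons are far longer than the transcript, as in H2AFY, the level per transcript length would be higher. In GENCODE the merged exons of H2AFY measure 17730 bases and its longest coding transcript 2789, and for H2AFJ 3356 and 644, for H3F3B 6134 and 2705, and for H2AFZ 2303 and 979.

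H1FX and H2AFX had levels in B of 0.484 and 0.519 times those in N, as the mean over 4 pairs of groups, while the other 8 members ranged between 0.760 and 1.05 times, worked out from the authors' deposited table. Their longest coding transcripts hold 68.6% and 66.4% G and C, the highest of the 10. Across 9998 genes of at least 1 RPKM in all groups, the log2 ratio of B over N fell with transcript GC content (Pearson r = -0.65, Spearman rho = -0.58), and across the 10 members the values were -0.67 and -0.47, given as a description over genes that share the same libraries. Genes of 65% GC or more had a median ratio of 0.457, and those of 40% to 45% had 1.17. Of members of 40% to 45% GC, H3F3A had 0.818, H3F3B 0.854 and H2AFV 0.941, and H2AFZ (46.6%) had 0.776. All lay below the medians of their own GC classes, which were 1.17 for both. In the class of 50% to 55%, with a median of 1.03, H1F0 (0.850) and H2AFY (1.01) lay below and H2AFY2 (1.05) above. H2AFJ, H1FX and H2AFX lay above the medians of their classes. The experiments differed in passage, sequencing centre and library kit, which cannot be told apart.

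**Figure D5:**
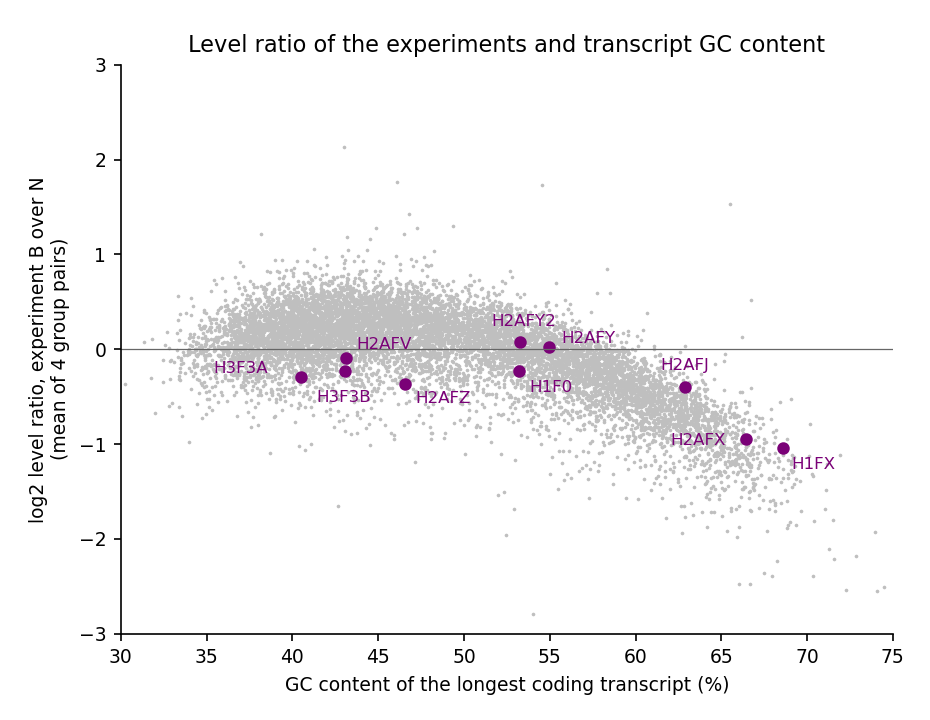
Log2 ratio of levels in experiment B over N, the mean of 4 pairs of groups (vertical axis), against the GC content of the longest coding transcript in percent (horizontal axis), for the histone variants (purple) and all genes of at least 1 RPKM in the 8 groups (grey, 2 genes outside the axes). H1FX (68.6% GC) and H2AFX (66.4%) lie at -1.05 and -0.95.

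Genes that act on these histones were counted from lists chosen with earlier results known. Of 7 genes of H3.3 deposition, DAXX, the chaperone that works with ATRX, fell in all 4 comparisons, by 1.1998-fold in H6 B (q = 0.0208), 1.23-fold in I4 B (q = 0.000531), 1.19-fold in H6 N (q = 0.00454) and 1.25-fold in I4 N (q = 7.2e-05) in the authors' deposited table. ASF1A, a chaperone that hands H3 and H4 on to HIRA, rose in H6 B (1.24-fold, q = 0.0101), H6 N (1.15-fold, q = 0.0487) and I4 N (1.27-fold, q = 0.0115), and was listed at 1.13-fold in I4 B (q = 0.162). ATRX, named after its values were seen, rose in I4 B by 1.26-fold (q = 3.24e-05), and HIRA, UBN1, UBN2 and CABIN1 were called in 0 comparisons. In each comparison 1 of the 7 rose and 1 fell. Of all genes of at least 1 RPKM, 10.5%, 19.4%, 20.4% and 22.9% were called in H6 B, I4 B, H6 N and I4 N, and 4.99% in all 4 with 1 sign. With 7 genes, these counts show no difference of the list from all genes. The list's median log2 fold was -0.04, 0.08, -0.13 and -0.02 in those comparisons.

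Of 18 genes of H2A.Z exchange, RUVBL1, an ATPase shared by the exchange complexes, fell in all 4 comparisons, by 1.30-fold in H6 B (q = 0.000150), 1.19-fold in I4 B (q = 0.01004), 1.29-fold in H6 N (q = 1.12e-05) and 1.15-fold in I4 N (q = 0.0404) in the authors' deposited table. Single calls, named after their values were seen, were of BRD8 (lower in I4 B), DMAP1 (higher in H6 N) and ANP32E, which removes H2A.Z (lower in I4 N). Of the 18, 0 rose and 1 fell in H6 B, and 0 rose and 2 fell in I4 B. In H6 N 1 rose and 1 fell, and in I4 N 0 rose and 2 fell. Of all genes of at least 1 RPKM, 10.5%, 19.4%, 20.4% and 22.9% were called there, and 4.99% in all 4 with 1 sign. The calls in this list are thus no more than the background share or near it. The list's median log2 fold lay between -0.04 and 0.03.

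Of 17 genes of H2AX phosphorylation and its readers at 1 RPKM or more, 2 rose and 2 fell in H6 B, 2 fell in I4 B, 6 fell in H6 N, and 6 fell in I4 N, with 0 called in 1 direction in all 4 comparisons. Of all genes of at least 1 RPKM, 10.5%, 19.4%, 20.4% and 22.9% were called in these comparisons, in either direction. EYA3, a phosphatase of the H2AX tyrosine mark, fell in I4 B, H6 N and I4 N at folds of -1.17 to -1.23, and was listed at -1.18 in H6 B (q = 0.0723). BAZ1B, the kinase that writes this mark, fell in the same 3 comparisons, at folds of -1.14 to -1.26 in the authors' deposited table, and was listed at -1.15 in H6 B (q = 0.116). The list's median log2 fold was -0.09, 0.01, -0.16 and -0.08 in H6 B, I4 B, H6 N and I4 N, beside 0.01, 0.00, -0.01 and -0.01 for all genes of at least 1 RPKM.

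Of 18 genes that supply histones during replication, MCM2, a helicase subunit that binds H3 and H4, fell in all 4 comparisons, by 1.196-fold in H6 B, 1.194-fold in I4 B, 1.24-fold in H6 N (q = 0.000245) and 1.26-fold in I4 N (q = 2.64e-05) in the authors' deposited table. The list had 0 genes called higher and 2, 3, 3 and 4 of 18 called lower in H6 B, I4 B, H6 N and I4 N. These numbers are near the shares of all genes called there in either direction (10.5%, 19.4%, 20.4% and 22.9%). The list's median log2 fold was -0.10, -0.11, -0.07 and -0.16 in those comparisons, beside 0.01, 0.00, -0.01 and -0.01 for all genes of at least 1 RPKM. That difference was not tested. Of 9 macrodomain and poly(ADP-ribose) genes at 1 RPKM or more, PARG itself was the 1 called in all 4. With PARG counted, 1 rose and 0 fell in H6 B, and 1 rose and 1 fell in I4 B. In H6 N and in I4 N, 2 rose and 1 fell, beside the same shares of all genes. ADPRHL2, named after its values were seen, rose in H6 N (1.22-fold, q = 0.00137) and I4 N (1.17-fold, q = 0.0208), and was not called in B. PARP1, the main writer of poly(ADP-ribose), fell by 1.29-fold in I4 B (q = 1.5e-06), 1.25-fold in H6 N (q = 0.0151) and 1.38-fold in I4 N (q = 9.87e-05), and was listed at -1.16 in H6 B (q = 0.0755).

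Of the 71 replication-dependent histone rows, 18 reached 1 RPKM in these poly(A)-selected libraries, which favour mRNA with a tail. None of the 18 was called in 1 direction in all 4 comparisons, 0 rose and 1 fell in H6 B, 0 rose and 1 fell in I4 B, 2 rose and 2 fell in H6 N, and 1 rose and 2 fell in I4 N, in the authors' deposited table. The shares of all genes of at least 1 RPKM called were 10.5%, 19.4%, 20.4% and 22.9%. A rise in H6 N was that of HIST2H2AA3, named after its values were seen, whose value is uncertain because HIST2H2AA4 is a near-identical copy. HIST2H2AA4 itself, likewise uncertain, was a fall in I4 N. A fall in H6 N was that of HIST2H4B, also named after its values were seen, at a fold of -7.80 from a higher mean of 1.81 RPKM. The limit of 1 RPKM was set on the higher group mean, so a gene can pass it while low in the other group. The median log2 fold of the 18 was -0.26 in H6 B, -0.08 in I4 B, -0.13 in H6 N and 0.04 in I4 N.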

How the data were processed

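Poly(A)-selected RNA of PC-3 clones was sequenced in 2 experiments, with libraries of both strands in N and strand-specific libraries in B, per the labels' protocols. The build was hg38, per the submitters' processing notes. Of the aligner, counter, annotation release and statistical test, nothing was given in the sources used here.

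The authors' deposited table holds, for each comparison, the higher group mean, a signed fold and a q-value. No header names the unit of the means. The means deposited by the authors were read as RPKM because steps in the low values scale with merged exon length in GENCODE. These steps also gave the read numbers. The fold is a score deposited by the authors, in which a negative sign marks the group divided on top as lower. That group was taken as the treated one because PARG is positive in all 4. The q-values deposited by the authors were used as they stand, at 0.05. Wells of 1 clone are replicate cultures, so the q-values cover the spread between wells alone.

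From these, the other group's mean, log2 folds, ratios of groups, counts and shares were computed (Python 3.11.15, pandas 2.3.3, numpy 2.4.6), after a test on simulated data. Gene coordinates and lengths came from GENCODE on GRCh38. Where genes are compared, levels depend on the exon length used. No value was taken from the 27 rows whose names had turned into dates.

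The members and gene lists were chosen with earlier results of these data known. Genes were named by rule: all 10 members, PARG, and from each list up to 4 genes of at least 1 RPKM called in all 4 comparisons with 1 sign, or in 3 where fewer than 2 were. Others are said to be chosen after their values were seen. Some genes of the marker list are not reported here.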

Additional observations from a re-analysis of the deposited data

How the results depend on the processing

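At a q under 0.1, I4 N had 1 member called (H2AFY2, lower) and both N comparisons shared 1, against 0 each at 0.05. With a fold of at least 1.2 required as well, H6 N had 0 called, against 2. With the bound of the unadjusted p under 0.05 (added after the data were seen, and resting on the q-values being Benjamini-Hochberg), 2 members passed in I4 B and 2 in I4 N, against 0 each. A q under 0.01 left all 7 counts of called members as they were, and centring the folds on the median of all genes (-0.01 to 0.01 on the log2 scale) turned 0 of the 40 member signs. The mean log2 fold over B alone and over N alone had opposite signs for H2AFX (-0.04 in B, 0.05 in N, 0.01 over both) and H2AFV (0.02 in B, -0.07 in N, -0.03 over both), that of H3F3B was -0.02 in B and -0.16 in N, and the other 7 members kept their sign. Leaving out a replicate could not be done from group means. No paired analysis was possible because the table holds no value per library. Depth was lower in the B libraries, and the folds that could be called were read from genes of 30 to 350 RPKM, which leave out H2AFJ.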

Other observations

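Outside the genes described so far, CENPA, the centromeric H3 variant, was listed 1.21-fold higher with doxycycline in H6 N (q = 0.00457) and 1.32-fold higher in I4 N (q = 0.00225) in the authors' deposited table. In B it was not called, at log2 folds of the same sign, 0.03 in H6 B and 0.19 in I4 B. It was the 1 gene of at least 1 RPKM among 11 rows of other histone variants. HIST1H1C, a linker histone of the replication-dependent group, rose by 1.51-fold in H6 N (q = 1.49e-11) and 1.41-fold in I4 N (q = 0.000148), beside 1.11-fold in H6 B (q = 0.831) and 1.04-fold in I4 B (q = 1.00). HIST1H2BG, a histone H2B, fell by 1.43-fold in H6 B (q = 0.0184) and 1.33-fold in I4 B (q = 0.0341), and was listed at -1.41 in H6 N (q = 0.0515) and -1.26 in I4 N (q = 0.161). These genes were chosen after their values were seen, and the difference between experiments was not tested.

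The near-identical copies HIST2H2AA3 and HIST2H2AA4 gave uncertain values in the authors' deposited table. In H6 N, HIST2H2AA3 was listed at a fold of 76.9 and HIST2H2AA4 at -1.28, and in I4 N at 6.10 and -2.15. How reads of such copies were divided was not given in the sources used here.

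Among 4157 genes of at least 10 RPKM, the 5 whose 4 log2 folds lay nearest to those of H2AFY2 were APEX1 (a distance of 0.0363), DDX1 (0.0409), SEC23B (0.0428), FARSB (0.0493) and FAM136A (0.0503), and 197 genes lay within 0.15.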
